A study of Mus musculus with 6 samples.

Results

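Glyceroneogenesis makes the glycerol 3-phosphate onto which fat cells esterify fatty acids when glucose is short, and glycerol channels let out the glycerol that lipolysis leaves behind. The gene set described here was chosen by name. It holds the PEPCK enzymes Pck1 and Pck2, the aquaporins Aqp1, Aqp3, Aqp7 and Aqp9, glycerol kinase (Gk), and the glycerol 3-phosphate dehydrogenases Gpd1l and Gpd2. Of these 9 genes 8 were read by 20 of the 34945 probe sets that carry a single gene symbol, and Gk was not analysed here. The whole table read 18193 genes. A probe set is the group of short array probes that reads 1 transcript region. There were 3 probe sets for Pck1, 2 for Pck2, 1 for Aqp1, 4 for Aqp3, 2 each for Aqp7, Aqp9 and Gpd1l, and 4 for Gpd2.

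The arrays measured RNA from epididymal white fat, a visceral pad, of male C57BL/6 mice aged 16 weeks, kept on chow with free access to food. AFO mice carried floxed Fto alleles and a Cre recombinase under adiponectin regulatory sequence, which acts in fat cells. Control mice carried the floxed alleles without the Cre. Fto encodes an RNA demethylase. Each genotype has 3 arrays, 1 for each independent RNA pool, and the number of mice in a pool is not given in the sources used here. Pools are numbered 1 to 3 in each genotype, and the labels state no pairing of equal numbers. A difference within a pool number is the AFO array minus the control array of that number. Values are log2 levels, so a difference of 1 is a factor of 2. They can be compared between arrays for a probe set, but not between probe sets.

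In the fat cell, PEPCK turns oxaloacetate into phosphoenolpyruvate, which reversed glycolytic steps carry to dihydroxyacetone phosphate and then to glycerol 3-phosphate. Pck1 encodes the cytosolic PEPCK and is a classic target of PPARG in adipose tissue, while Pck2 encodes the mitochondrial form. Aqp7 is the main glycerol channel of fat cells, and its loss in mice has been linked to glycerol retention and fat cell enlargement. Glycerol kinase, low in white fat, would return that glycerol to glycerol 3-phosphate.

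Fat cell RNA was abundant on each array. The 8 adipocyte markers that could be read (of 10 listed) averaged 12.15, 11.62 and 11.57 in AFO pools 1, 2 and 3 and 12.13, 11.98 and 11.81 in control pools 1, 2 and 3. The pool 2 arrays stood apart in both genotypes. In AFO and control pool 2, 7 of 8 listed B cell markers averaged 8.18 and 7.64, against 4.81 to 5.34 on the other arrays. The 8 mesothelial markers averaged 5.12 and 5.38 in AFO and control pool 2, against 8.24 to 8.46 elsewhere. Results that lean on pool 2 are therefore also given without it. In whole tissue, fewer cells of a type and less RNA per cell cannot be told apart. The brighter of 2 Fto probe sets (1448223_at) read 6.13, 5.45 and 5.95 in AFO fat and 6.11, 6.20 and 5.59 in control fat. Its genotypes overlapped, the deleted exon is not named in the labels, and so the genotype rests on the labels.

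None of these genes passed the test of AFO against control fat. By limma, fitted over all 34945 probe sets with Benjamini-Hochberg adjustment, 0 of the 20 probe sets were called at an adjusted p under 0.05. The same held for 0 of all probe sets (0% called), and the adjusted p of each of the 20 was 0.99996. At an unadjusted p under 0.05 there were 0 of the 20 and 434 of all probe sets (1.24%). The lowest unadjusted p was 0.0693 for Aqp9. With pool number as a block, 2 probe sets passed in the whole table, of Bex1 and Mlf1, named after their values were seen (0.00572% called), and 0 of the 20 did. With the block 2 of the 20, the main probe sets of Aqp7 and Aqp9, had an unadjusted p under 0.05, as did 3.45% of all. Without AFO pool 2 alone 90 passed, again 0 of the 20. Groups that did not overlap were seen in 2 of the 20 probe sets, 1 in each direction, and in 1388 of all (3.97%). Of the 20, 8 had a positive and 12 a negative AFO minus control difference, with a median of -0.086 against -0.019 over all probe sets. The median size of the difference was 0.163 for the 20 and 0.0952 over all. Below, each gene is read from the probe set with the highest mean over the 6 arrays, with the others beside it.

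**Figure D1:**
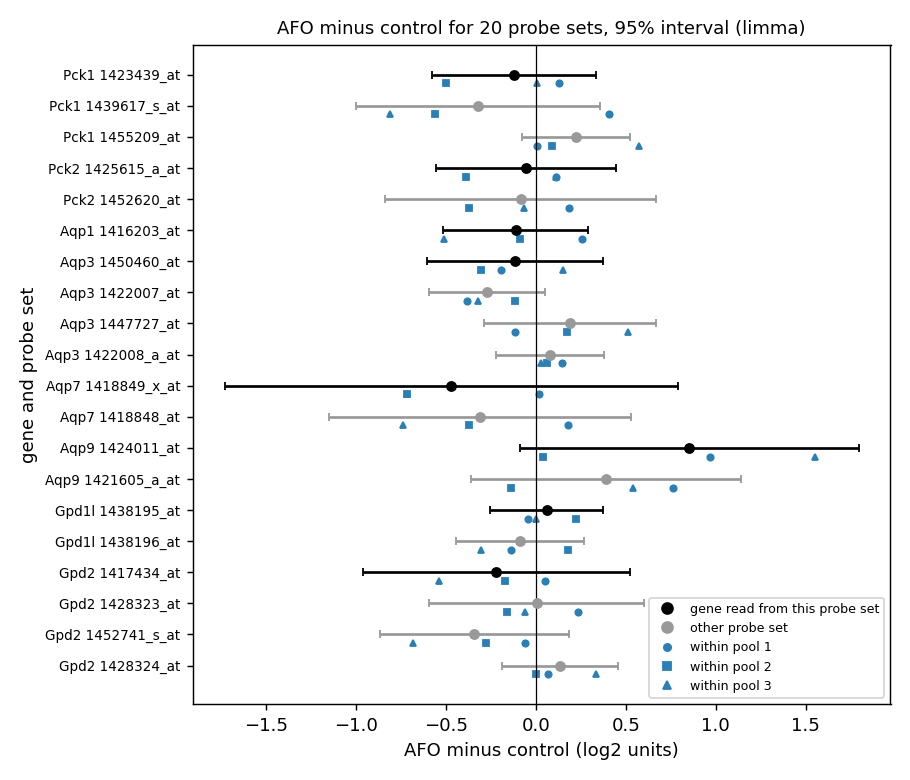
Difference AFO minus control (log2 units, x axis) for each of the 20 probe sets (y axis). Large points are the mean difference with its 95% interval from limma (n = 3 each), black where the gene is read from that probe set and grey otherwise, and small blue marks are the differences within pools 1, 2 and 3. All 20 intervals, which are from the unpaired fit, include 0, and the main probe sets of Aqp7 and Aqp9 have the widest.

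Pck1 was nearly flat across the arrays except for AFO pool 2. Its main probe set (1423439_at) read 12.42, 11.75 and 12.37 in AFO pools 1, 2 and 3 and 12.29, 12.24 and 12.36 in control pools 1, 2 and 3. The other arrays thus lay close together, and the groups overlapped. The means were 12.18 ± 0.37 in AFO fat and 12.30 ± 0.06 in control fat (SD, n = 3 for both), a difference of -0.12 (SE 0.19, 95% interval -0.58 to 0.33). Without both pool 2 arrays the difference was 0.067 (SE 0.15, 2 arrays a genotype).

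The other Pck1 probe sets did not tell the same story in pool 3. Probe set 1439617_s_at, whose suffix marks probes shared by several transcripts, read 11.41, 10.35 and 10.49 in AFO fat and 11.01, 10.91 and 11.30 in control fat. Within pool 3 it differed by -0.81, where the main probe set differed by 0.0074, while within pool 2 the values were -0.56 and -0.50. Its mean difference was -0.32 (SE 0.29), with overlapping groups. The third, 1455209_at, is dim, with 2.57, 2.64 and 2.99 in AFO fat and 2.57, 2.55 and 2.41 in control fat. There every AFO value lay just above every control value, a difference of 0.22 (SE 0.13), as it did for 1.95% of all probe sets.

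Pck2 followed the same shape as Pck1. Its main probe set (1425615_a_at) read 8.17, 7.62 and 8.34 in AFO fat and 8.06, 8.005 and 8.23 in control fat. AFO pool 2 was again the lowest array, and the other 5 lay within the range from 8.005 to 8.34. The difference was -0.054 (SE 0.21, 95% interval -0.56 to 0.45), and 0.11 (SE 0.17) without both pool 2 arrays. Probe set 1452620_at had 5.29, 4.45 and 5.51 in AFO fat and 5.11, 4.82 and 5.58 in control fat, lowest in pool 2 of each genotype.

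The stretches just upstream of the PEPCK genes are shown for their letters alone, and no link to expression was tested. They come from RefSeq (build GRCm38.p6, plus strand) and are written 5′ to 3′. Pck1 covers the 250 bases before the start, chr2:173152823-173153072, and Pck2 the 247 bases before the annotated gene, chr14:55540016-55540262. Capitals mark the core of the cAMP response element, TGACG or its reverse CGTCA, and the GC box, GGGCGG or its reverse CCGCCC.
Pck1: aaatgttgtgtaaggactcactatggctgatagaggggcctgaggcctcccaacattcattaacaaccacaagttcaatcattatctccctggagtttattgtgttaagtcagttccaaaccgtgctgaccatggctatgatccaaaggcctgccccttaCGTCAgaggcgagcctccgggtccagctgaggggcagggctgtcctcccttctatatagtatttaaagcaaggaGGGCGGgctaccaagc
Pck2: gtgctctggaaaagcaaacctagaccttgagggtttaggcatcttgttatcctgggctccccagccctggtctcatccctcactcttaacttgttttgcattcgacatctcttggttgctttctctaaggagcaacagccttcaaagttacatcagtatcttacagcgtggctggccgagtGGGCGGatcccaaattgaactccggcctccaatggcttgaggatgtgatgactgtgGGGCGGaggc
Pck1 held 1 match to the cAMP element core, which begins 90 bases before the start, and 1 GC box. Pck2 held 0 and 2. On both strands, the core occurs in 17.8% and the GC box in 32.7% of the 32851 RefSeq promoter windows of 250 bases. The 2 motifs share no bases in these stretches. A match is a description of the letters, and the arrays carry no measure of binding there.

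Aqp7, the glycerol channel of the fat cell, varied more between arrays than the PEPCK genes. Probe set 1418849_x_at, whose suffix warns of possible cross-hybridisation, read 9.16, 7.27 and 8.54 in AFO pools 1, 2 and 3 and 9.15, 7.98 and 9.25 in control pools 1, 2 and 3. The pool 2 arrays were the 2 lowest, and the genotypes overlapped. The means were 8.32 ± 0.96 in AFO fat and 8.79 ± 0.70 in control fat (SD, n = 3 for both). The difference of -0.47 (SE 0.53) had a 95% interval from -1.73 to 0.79. With pool number as a block the interval was -0.90 to -0.05 (SE 0.17), with a limma adjusted p of 0.998.

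The second Aqp7 probe set gave the same picture. Probe set 1418848_at read 7.67, 6.45 and 6.94 in AFO fat and 7.49, 6.82 and 7.67 in control fat, a difference of -0.31 (SE 0.36). Within pools 1, 2 and 3 the AFO minus control differences were 0.017, -0.71 and -0.71 for the main probe set and 0.18, -0.37 and -0.74 for this one. Both probe sets thus stood lower in AFO fat within pools 2 and 3 and close to control or above it within pool 1. Without AFO pool 2 the difference of the main probe set was 0.056 (SE 0.40), and without both pool 2 arrays it was -0.35 (SE 0.23, adjusted p = 0.9996 by limma over 2 arrays a genotype). Over the 17 alternatives its adjusted p ran from 0.764 to 1.

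Aqp7 stood lower in pool 2, relative to pools 1 and 3, than the median of the general fat cell markers did. Its pool 2 level minus the mean of pools 1 and 3 was -1.58 in AFO and -1.21 in control fat. The median of the same quantity was -0.25 in AFO and -0.05 in control fat for the adipocyte list, and -0.62 and -0.65 for 10 endothelial markers. It was 4.67 in AFO and 4.44 in control fat for 10 skeletal muscle markers, and -3.39 and -3.37 for 8 mesothelial markers. Aqp7 is also made by capillary endothelium in fat, and the part of these cells in its values was not tested. Pool 2 is no group of the study, and no test was made of it.

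**Figure D2:**
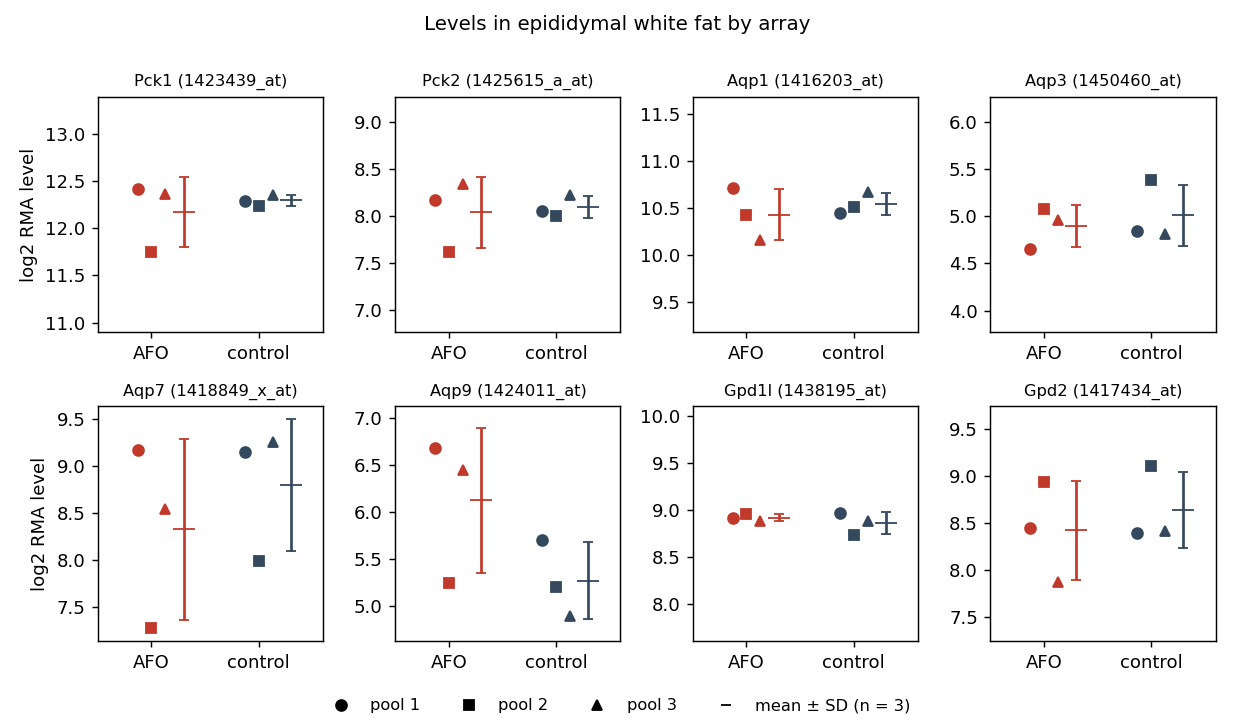
Log2 RMA level (y axis) of the probe set each gene is read from, in AFO and control fat. Circles, squares and triangles are pools 1, 2 and 3, and the bar gives the mean and SD of 3 arrays. Each panel has its own y range of at least 2.5 log2 units. Pck1 and Pck2 are lowest in AFO pool 2, Aqp7 is lowest in the pool 2 arrays of both genotypes, and Aqp9 is highest in AFO pools 1 and 3.

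Aqp9, a glycerol channel known best from liver and also from the epididymal duct and white blood cells, had the widest gap between genotypes among the 8 genes. Its main probe set (1424011_at) read 6.68, 5.25 and 6.44 in AFO pools 1, 2 and 3 and 5.71, 5.21 and 4.89 in control pools 1, 2 and 3. AFO pools 1 and 3 were above every control array, while AFO pool 2 lay among the controls. The means were 6.12 ± 0.77 in AFO fat and 5.27 ± 0.41 in control fat (SD, n = 3 for both). The difference of 0.85 (SE 0.40, 95% interval -0.09 to 1.80) did not pass, with a limma adjusted p of 0.99996. With pool number as a block the interval was 0.17 to 1.54 (SE 0.28), with a limma adjusted p of 0.998.

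The second Aqp9 probe set was lower in signal and showed a smaller gap. Probe set 1421605_a_at read 5.53, 4.41 and 4.64 in AFO fat and 4.76, 4.54 and 4.10 in control fat, a difference of 0.39 (SE 0.32). In this probe set AFO pool 3 lay among the control values, so only AFO pool 1 stood above them. Within pools 1, 2 and 3 the differences were 0.97, 0.04 and 1.55 for the main probe set and 0.76, -0.14 and 0.54 for the second.

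The Aqp9 result depended on pool 2. Without both pool 2 arrays the difference was 1.26 (SE 0.28, limma adjusted p = 0.207), and without AFO pool 2 alone it was 1.29 (SE 0.26, adjusted p = 0.230). With pool number as a block over pools 1 and 3 alone it was 1.26 (SE 0.22) and passed, with a limma adjusted p of 0.0438 over 2 pairs of arrays. That setting called 249 probe sets in the whole table. It was 1 of 17 alternatives, over which the adjusted p of Aqp9 ran from 0.0438 to 1, and it was chosen with earlier results of these data known.

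Some epithelial markers shared the pattern of Aqp9 and others did not. The 10 listed epithelial genes averaged 6.99, 5.18 and 6.60 in AFO pools 1, 2 and 3 and 5.73, 6.30 and 5.38 in control pools 1, 2 and 3, so AFO pools 1 and 3 were the highest 2 arrays for the list mean as for Aqp9. Singly, AFO pools 1 and 3 were the highest 2 arrays for 5 of the 10 genes (Epcam, Krt8, Krt18, Cldn7 and Esrp1, named after their values were seen), and control pool 2 lay above AFO pool 3 for 4. Within pool 2 the list had a median difference of -0.75, where Aqp9 had 0.04. The 8 epididymis markers that could be read, of 11 listed, averaged 6.45 in AFO pool 1 and 4.15 to 4.47 on the other 5 arrays. Neutrophil markers (7 of 9 listed) averaged 5.47, 7.16 and 5.40 in AFO fat and 5.55, 6.48 and 5.49 in control fat, highest in the pool 2 arrays. Hepatocyte markers (8 of 9 listed) had array means from 6.30 to 6.49 in AFO fat and from 6.38 to 6.93 in control fat. The part of these cells in the Aqp9 values was not tested.

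**Figure D3:**
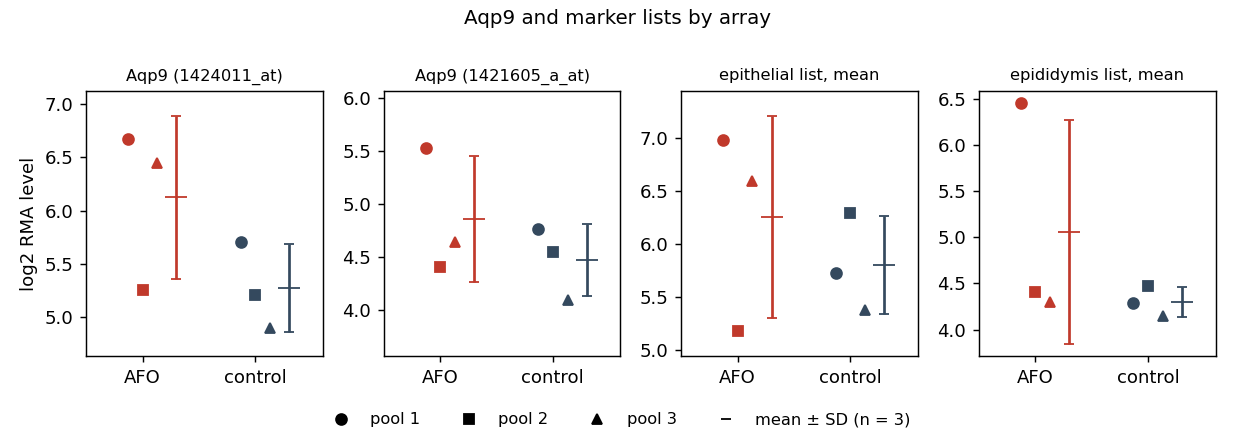
Log2 RMA level (y axis) of both Aqp9 probe sets, and the mean log2 level of the epithelial and epididymis marker lists, in AFO and control fat. Circles, squares and triangles are pools 1, 2 and 3, and bars give the mean and SD of 3 arrays. AFO pools 1 and 3 are highest for 1424011_at and the epithelial list, and only AFO pool 1 is raised in the epididymis list (6.45).

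Aqp1, a water channel of capillary endothelium and red cells that passes little glycerol, was steady. Its probe set (1416203_at) read 10.71, 10.42 and 10.16 in AFO fat and 10.45, 10.51 and 10.67 in control fat. The highest and the lowest array were both AFO arrays, and the difference was -0.11 (SE 0.17, 95% interval -0.52 to 0.29). Endothelial markers averaged 9.03, 8.24 and 8.89 in AFO fat and 9.06, 8.50 and 9.15 in control fat. They were lowest in pool 2 of both genotypes, and Aqp1 was not.

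Aqp3, a channel for water and glycerol found in many epithelia, was dim in this fat. All 4 of its probe sets had means under the 40th percentile of the table (5.22). The brightest, 1450460_at, read 4.66, 5.08 and 4.96 in AFO fat and 4.85, 5.39 and 4.81 in control fat, with overlapping groups and a difference of -0.12 (SE 0.21). In 1422007_at all AFO values (4.77, 4.93 and 4.67) lay below all control values (5.15, 5.04 and 4.99), a difference of -0.27 (SE 0.14). Such complete separation on the lower side was seen in 2.02% of all probe sets. It was seen in 1 of the 4 Aqp3 probe sets, and the remaining 2 had differences of 0.19 (SE 0.20) and 0.078 (SE 0.13) with overlapping groups.

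Gpd2, the mitochondrial glycerol 3-phosphate dehydrogenase that passes electrons from cytosolic glycerol 3-phosphate to the respiratory chain, was higher in pool 2 of both genotypes. Probe set 1417434_at read 8.45, 8.93 and 7.87 in AFO fat and 8.39, 9.10 and 8.41 in control fat. The pool 2 level minus the mean of pools 1 and 3 was 0.77 in AFO and 0.70 in control fat. Probe set 1428323_at gave 0.47 in AFO and 0.71 in control fat for the same quantity. The dimmer 1452741_s_at gave 0.37 and 0.28. The last, 1428324_at, gave 0.028 in AFO and 0.23 in control fat, and its AFO pool 3 value (4.74) lay above its AFO pool 2 value (4.65). Skeletal muscle markers averaged 9.28, 11.60 and 4.79 in AFO fat and 4.94, 9.07 and 4.62 in control fat. They were high in AFO pool 1 too, where Gpd2 read 8.45, against 8.39 in control pool 1. For pool 2 minus the mean of pools 1 and 3, B cell markers had a median of 3.85 in AFO and 2.81 in control fat. T cell markers had 2.91 and 2.29, neutrophil markers 1.39 and 0.65, endothelial markers -0.62 and -0.65, and mesothelial markers -3.39 and -3.37. The part of any of these cells in the Gpd2 values was not tested.

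Between genotypes no Gpd2 probe set passed the test. The main probe set differed by -0.22 (SE 0.31, 95% interval -0.96 to 0.52) and 1428323_at by 0.0046 (SE 0.25). The dimmer 1452741_s_at differed by -0.34 (SE 0.22) and 1428324_at by 0.14 (SE 0.14), all with overlapping groups. In AFO pool 3 both 1417434_at and 1452741_s_at had their lowest value of the 6 arrays, 7.87 and 4.23. Probe set 1428323_at was lowest there too, at 8.07, level with control pool 1 (8.07). The mean differences of the 4 probe sets did not share a direction.

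Gpd1l, a cytosolic relative of the classical glycerol 3-phosphate dehydrogenase Gpd1, was the steadiest gene of the set. Probe set 1438195_at read 8.92, 8.95 and 8.88 in AFO fat and 8.96, 8.73 and 8.87 in control fat, a span of 0.23 over all 6 arrays. The difference was 0.061 (SE 0.13), and its 95% interval from -0.25 to 0.37 was the narrowest among the 8 genes. Probe set 1438196_at differed by -0.087 (SE 0.15). Gpd1 itself (1448249_at) read 9.48, 9.74 and 9.53 in AFO fat and 9.51, 10.09 and 9.07 in control fat, a difference of 0.028 (SE 0.26).

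**Figure D4:**
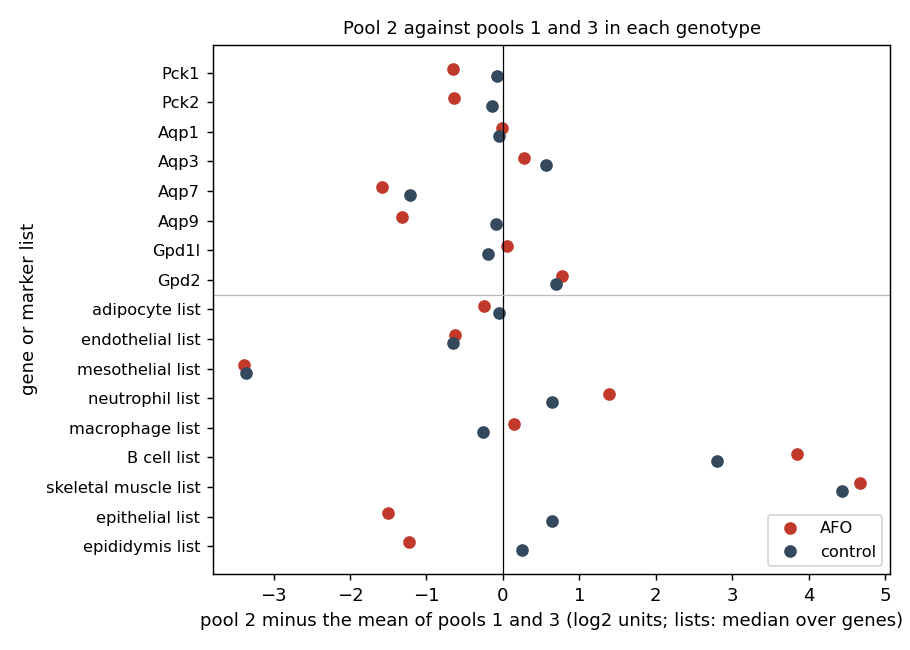
Pool 2 level minus the mean of pools 1 and 3 (log2 units, x axis) in AFO and control fat, for each gene (above the grey line) and as the median over genes for marker lists (below it). Points are single values with no error bar. Aqp7 is negative (-1.58 in AFO and -1.21 in control fat) and Gpd2 positive (0.77 in AFO and 0.70 in control fat), while Aqp1 lies near 0 (-0.01 in AFO and -0.05 in control fat).

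Genes with the most similar profiles were sought for the 3 genes that spanned at least 1 log2 unit over the 6 arrays. Likeness was the root mean square difference between profiles centred on their own mean, among 18193 genes. Aqp7 was closest to Akap2 (0.127 log2 units), a kinase anchoring protein, Col8a1 (0.133), a collagen chain, and Rbp7 (0.134), a retinol-binding protein of adipose capillaries. Aqp9 was closest to Glyat (0.0843), a glycine acyltransferase, 1110017D15Rik (0.182) and Ppp2r2b (0.185), a phosphatase subunit. Gpd2 was closest to Igkv6-20 (0.0782), an immunoglobulin light chain segment, Slc16a5 (0.0843), a monocarboxylate transporter, and Traf4 (0.0855), a signalling adaptor. Several of these neighbours were dim. Igkv6-20 read from 3.27 to 4.52, and Glyat, Ppp2r2b and Slc16a5 read under the 40th percentile level (5.22) on most arrays. With 6 arrays, and pool 2 apart, these profiles mostly record the order of a few arrays.

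The neighbouring steps of the pathway were read from lists of genes, and 0 of the 61 genes read were called in either direction. In the route from pyruvate to dihydroxyacetone phosphate, 19 of 22 listed genes were read, with 10 positive and 9 negative differences and a median of 0.072, against -0.0095 over all genes. Within pools 1, 2 and 3 that median was 0.17, 0.14 and -0.09. Skeletal muscle markers had positive differences in 10 of 10 genes, with a median of 2.45 (4.36, 2.51 and 0.11 within pools 1, 2 and 3). The part of muscle in the values of this list was not tested. Got2, the mitochondrial aspartate aminotransferase, read 9.33, 9.73 and 9.35 in AFO fat and 9.06, 8.97 and 8.81 in control fat. Every AFO array was above every control array, with a difference of 0.53 (SE 0.16, limma adjusted p 0.99996). Its other 3 probe sets overlapped between genotypes, and the mean of all 4 differed by 0.26 (SE 0.14). Slc25a13, an aspartate and glutamate carrier of mitochondria, also separated, with 5.28, 4.91 and 4.95 in AFO fat and 4.77, 4.77 and 4.53 in control fat (difference 0.36, SE 0.16). Over all genes 4.01% had groups that did not overlap, in either direction.

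Of 12 genes that use glycerol 3-phosphate 8 had negative AFO minus control differences, with a median of -0.11. Within pools 1, 2 and 3 that median was 0.057, -0.30 and -0.15. Over all genes 52.7% had negative differences. Dgat1, which adds the last fatty acid to triglyceride, read 10.66, 10.27 and 10.16 in AFO fat and 10.69, 10.66 and 10.76 in control fat (difference -0.34, SE 0.16). Its second probe set (1445229_at) differed by -0.012 (SE 0.14), and the mean of both by -0.18 (SE 0.12). All 6 genes read of 7 listed for glycerol release had negative differences, with a median of -0.25. In pools 1, 2 and 3 it was -0.08, -0.32 and -0.32. The list also holds G0s2, a lipase inhibitor, so the shared sign cannot be read as a direction of glycerol release, which was not measured. Fat cell and vessel markers had negative differences as well, in 8 of 8 adipocyte genes (median -0.21) and 10 of 10 endothelial genes (-0.16). Lipe (-0.34) and Pnpla2 (-0.18) stand in both the glycerol release list and the adipocyte list, so the signs of these lists are not independent. The part of fat cells and vessels in the values was not tested.

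G0s2, an inhibitor of the fat cell triglyceride lipase, had the largest difference among the genes of these pathway lists whose groups did not overlap. It read 8.70, 8.87 and 7.52 in AFO fat and 10.08, 9.06 and 9.46 in control fat. The difference was -1.17 (SE 0.41, limma adjusted p 0.99996), and it did not pass. Leaving out 1 array at a time gave -1.42 to -0.75, the smallest without AFO pool 3. Within pools 1, 2 and 3 the difference was -1.38, -0.19 and -1.93. Over pools 1 and 3 alone, with pool number as a block, it was -1.66 (SE 0.19) with a limma adjusted p of 0.00354. That setting rests on 2 pairs of arrays and called 249 probe sets in the whole table. Without the block the same arrays gave a limma adjusted p of 0.226. Over the 17 alternatives the adjusted p of G0s2 ran from 0.00354 to 1.

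Regulators of Pck1 and Aqp7 transcription had 5 positive and 9 negative differences among 14 genes, with a median of -0.08. Nr3c1, the glucocorticoid receptor, read 9.57, 9.57 and 9.59 in AFO fat and 9.80, 9.67 and 9.72 in control fat, which did not overlap (difference -0.15, SE 0.12). The mean of all its probe sets differed by -0.15 (SE 0.14). It was the only 1 of the 14 genes to separate, and over all genes 4.01% did so in either direction. The 10 other aquaporins and glycerol kinases had a median of -0.026, with 0 separated. Their widest difference was that of Aqp5, a water channel of glands, at -0.33 (SE 0.26), which was named after its values were seen.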

How the data were processed

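RNA from 6 pools was hybridised to Affymetrix arrays that read 3' transcript ends. The deposited values are log2 levels that the authors made with RMA (background correction, quantile normalisation, probe summary) in Affymetrix Expression Console 1.4, per the submitters' processing notes. RMA hides changes shared by most genes and understates those of dim ones (array medians 5.35 to 5.43). The genome build behind the probe sets is not given in the sources used here.

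Of 45101 probe sets 34945 carried 1 symbol and were all tested, without a filter, so that each of the 20 could be read. The remaining 64 controls, 932 with several symbols and 9160 not listed were left out. The test was an unpaired limma fit (limma 3.58.1, R 4.3.3) with a mean-variance trend. Of the 20 probe sets 11 reached the 40th percentile (5.22). The genes, lists and tests were chosen with earlier results of these data known. Named beyond the 9 genes are Fto, Gpd1, up to 3 non-overlapping genes a list, the 3 nearest profiles, and genes said to be named after their values were seen. The fit was checked on simulated data.

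Replicate numbers are shared by the genotypes, but the labels state no pairing. After subtracting genotype means, arrays of equal number 1, 2 and 3 correlated at 0.486, 0.733 and 0.371 across probe sets. Every pair exceeded 0.1, and blocked values are printed where a call changes. AFO 1 with control 3 reached 0.392 as well.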

Additional observations from a re-analysis of the deposited data

How the results depend on the processing

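With 3 arrays a genotype, 95% intervals of the 8 genes extended 0.313 to 1.26 log2 units on either side in the unpaired fit and 0.274 to 0.687 with the replicate block. Of 135 values of the 8 genes under 17 alternatives, 115 kept direction and side of the threshold, 19 changed sign with none of these passing, and 1 (Aqp9) passed. With the replicate block 2 probe sets were called in place of 0, without both pool 2 arrays 159, and without both and with the replicate block 249. Leaving out 1 array at a time gave 0 to 90, the 90 without AFO pool 2. The pathway genes called numbered 0 in the unpaired fit, 1 without both pool 2 arrays (Aldoc) and 2 with the replicate block as well (Aldoc and G0s2). Leaving out 1 array at a time gave 0 called pathway genes in all 6 fits. The replicate block on all 6 arrays changed no call of a gene described here. Without both pool 2 arrays, with or without the block, Pck1 turned to 0.067, Pck2 to 0.11, Gpd1l to -0.021 and Fto to 0.19. Under that block Aqp9 was 1.26. Array weights turned Pck2 to 0.064 and Gpd1l to -0.039, and averaging all probe sets of each gene turned Gpd1l to -0.013 and Gpd1 to -0.029 and brought Got2 to 0.26 and Dgat1 to -0.18. Leaving out 1 array at a time, the difference ran from -0.24 to 0.095 for Pck1, -0.20 to 0.16 for Pck2, -0.25 to 0.023 for Aqp1, -0.22 to 0.071 for Aqp3 and -0.89 to 0.056 for Aqp7. It ran from 0.58 to 1.29 for Aqp9, -0.0022 to 0.11 for Gpd1l, -0.48 to 0.052 for Gpd2, -0.22 to 0.29 for Gpd1 and -0.31 to 0.078 for Fto. The cause of these changes was not tested. The filter at the 40th percentile kept 11 of the 20 probe sets and 54 of the 61 pathway genes. Aqp3 and Slc25a13 were among the genes it removed.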

Other observations

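Aldoc, an aldolase that splits or joins sugar phosphates at dihydroxyacetone phosphate, was named after its values were seen. Probe set 1451461_a_at read 6.47, 5.10 and 6.37 in AFO pools 1, 2 and 3 and 5.14, 5.52 and 4.84 in control pools 1, 2 and 3. AFO pools 1 and 3 were the highest 2 arrays, as for Aqp9, and AFO pool 2 lay among the controls. Over all 6 arrays the difference was 0.82 (SE 0.38, limma adjusted p 0.99996). The second, dimmer Aldoc probe set (1424714_at) differed by -0.087 (SE 0.14), and the mean of both by 0.36 (SE 0.20). Leaving out 1 array at a time, the brighter differed by 0.57 to 1.26. Without both pool 2 arrays it was 1.43 (SE 0.19, 2 arrays a genotype) with a limma adjusted p of 0.0267. That setting called 159 probe sets in the whole table. Over the 17 alternatives the adjusted p of Aldoc ran from 0.0134 to 1.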
